A study of Drosophila melanogaster with 6 samples.

Results

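Whole-brain RNA of the control males that carried only the driver (*SPG-GAL4/+*) was compared with that of the control males that carried only the transgene (*UAS-traF/+*). These are 4 of the 6 libraries of a study in which the blood-brain barrier (BBB) of males was feminized, with 2 biological replicates of each genotype. The members were chosen by the genotype in the labels, so the comparison covers all transcripts and genes. *SPG-GAL4* is a *moody* promoter driver of GAL4 in the subperineurial glia, the glial layer that seals the fly brain, and *UAS-traF* holds the female Transformer coding sequence behind a GAL4-responsive promoter. A male with only 1 of the 2 transgenes has driver without target or target without driver, so neither control was built to express TraF in the BBB.

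All flies were *w1118* males, 4 to 5 days old. The control males carried their transgene over a wild-type chromosome. The strains had been outcrossed for 10 generations to a Cantonized *w1118* stock. Each library was a pool of at least 450 dissected brains with the BBB attached, taken between Zeitgeber hours 5 and 7. The 2 libraries of males with both transgenes (*SPG-GAL4/UAS-traF*) served to estimate the spread, and their values are given beside the controls. A pool averages over many flies, and in RNA from whole brains fewer cells of a type and less RNA per cell cannot be told apart.

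Transgenic strains differ from each other by more than the transgene. An insert carries a marker gene, most often a small copy of *white*, and the stretch of chromosome around it stays with the insert through the crosses. Elsewhere, copies of duplicated genes, start sites and splice sites can vary between stocks. A transcript quantifier sees such differences as a change in 1 isoform, in a whole gene, or in 1 copy of a gene family.

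The estimated counts summed to 32839081 and 35471014 in the *SPG-GAL4/+* libraries and to 34478865 and 35513653 in the *UAS-traF/+* libraries. Normalised counts are estimated counts divided by the effective library size and scaled to the mean library, separately for transcripts and for gene sums, which add up the transcripts of a gene. Some libraries stood apart. In *SPG-GAL4/+* replicate 1, gene sums depended on gene length, with a median log2 deviation of -0.20 in the 25% of genes with the shortest and 0.21 in the 25% with the longest transcripts, while the other 5 libraries stayed within 0.1 of 0. The replicates of *SPG-GAL4/+* differed by a median of 0.233 on the log2 scale over gene sums, those of *UAS-traF/+* by 0.0911. *UAS-traF/+* replicate 1 held 54 gene sums with 30 or more counts that had 5 or fewer in each of the other 3 control libraries, and *SPG-GAL4/+* replicate 2 held 21. The other control libraries held 0 such genes.

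**Figure D1:**
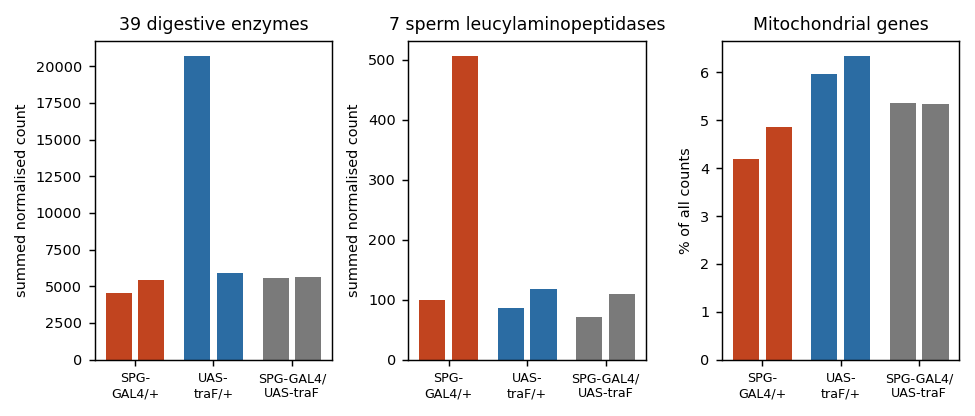
Summed normalised counts of 39 digestive enzyme genes (left) and 7 sperm leucylaminopeptidase genes (middle), and the share of all counts in mitochondrial genes in percent (right), with 1 bar per library. The digestive enzymes stand out in *UAS-traF/+* replicate 1 at 20696, the leucylaminopeptidases in *SPG-GAL4/+* replicate 2 at 507, and mitochondrial genes took less of both *SPG-GAL4/+* libraries than of both *UAS-traF/+* libraries.

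Of 9777 gene sums tested, 21 passed an adjusted p of 0.1 in edgeR's quasi-likelihood F test after Benjamini-Hochberg adjustment, which is 0.215%. In *SPG-GAL4/+* males 8 of these were higher (0.0818%) and 13 lower (0.133%). An unadjusted p below 0.05 was found for 754 gene sums (7.71%), and in 35.1% of all gene sums tested the control genotypes did not overlap. Leaving out *UAS-traF/+* replicate 1 left 6 called gene sums, and leaving out *SPG-GAL4/+* replicate 1, *SPG-GAL4/+* replicate 2 and *UAS-traF/+* replicate 2 gave 127, 3856 and 71. Those 6, which were called under every alternative tried, were *w*, *GIIIspla2*, *vri*, *CG6908*, *CG6928* and *BaraA2*. The other 15 called gene sums lost the call without *UAS-traF/+* replicate 1.

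The gene *w* (FBgn0003996, chromosome X, 2790599 to 2796466 of BDGP6.54), a subunit of the eye pigment precursor transporter and a common transgene marker, was first in the order of p. Its gene sum had 2869 and 3244 normalised counts in *SPG-GAL4/+* brains, against 680 and 747 in *UAS-traF/+* brains. The groups lay far apart. The log2 ratio, *SPG-GAL4/+* over *UAS-traF/+* here and throughout, was 2.10 with a standard error (SE) of 0.09 (adjusted p = 0.00088, edgeR). The *SPG-GAL4/UAS-traF* libraries had 3516 and 3605, above both *SPG-GAL4/+* libraries. All flies carried the *w1118* allele of this gene. The endogenous gene and a copy on a transgene cannot be told apart in these counts.

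The other genes tied to the transgenes or to sex determination did not pass the test. *moody*, the receptor gene whose promoter drives *SPG-GAL4*, had gene sums of 3600 and 3632 in *SPG-GAL4/+* brains, against 3481 and 3536 in *UAS-traF/+* brains. The *tra* gene sum had 642 and 568 in *SPG-GAL4/+* males against 541 and 501 in *UAS-traF/+* brains, a log2 ratio of 0.21 (SE 0.10, adjusted p = 0.656, edgeR). Only 1 *tra* isoform was quantified, *tra-RB* with 108 coding bases. A female form was thus not counted apart, and the gene and the transgene were not separated. The gene sums of *dsx*, *fru* and *Sxl* had log2 ratios of -0.05, 0.07 and 0.07 with standard errors of 0.09, 0.14 and 0.20. Without *SPG-GAL4/+* replicate 2, the genotype rested on the replicate with the length trend alone. The log2 ratios of *tra*, *fru* and *Sxl* were then 0.30, 0.27 and 0.35. Without *SPG-GAL4/+* replicate 1 those of *fru* and *Sxl* changed sign. Of 12 tested genes of sex determination and dosage compensation, 0 were called by edgeR or DESeq2. In edgeR 0 of them had an unadjusted p below 0.05, against 7.71% of all gene sums. The list's median log2 ratio was 0.07 beside 0.00 over all gene sums. Within *moody*, the isoform *moody-RF* had 1466 and 1444 normalised counts in *SPG-GAL4/+* brains, against 726 and 850 in *UAS-traF/+* brains. It was not called (adjusted p = 0.2625, edgeR). The isoforms *moody-RE*, *moody-RC* and *moody-RB* ran the other way. Of these, *moody-RE* had 214 and 379 in *SPG-GAL4/+* brains, against 780 and 469 in *UAS-traF/+* brains.

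Of the genes that were higher in *SPG-GAL4/+* males, *GIIIspla2* (FBgn0030013, chromosome X), which encodes a secreted phospholipase A2, had 1234 and 1314 normalised counts, against 536 and 549 in *UAS-traF/+* brains. The log2 ratio was 1.23 (SE 0.08, adjusted p = 0.00519, edgeR). *Gr32a*, a gustatory receptor that holds back courtship between males, had 152 and 139 in *SPG-GAL4/+* brains, against 47.6 and 56.7 in *UAS-traF/+* brains, a log2 ratio of 1.48 (SE 0.17, adjusted p = 0.0434, edgeR). The kinesin-like gene *nod*, known for chromosome segregation in female meiosis, differed least among the higher genes, with 1100 and 1100 in *SPG-GAL4/+* brains, against 710 and 666 in *UAS-traF/+* brains. In all 3 genes the *SPG-GAL4/UAS-traF* libraries lay near *SPG-GAL4/+*, with 1414 and 1360 for *GIIIspla2*, 129 and 126 for *Gr32a*, and 1183 and 1056 for *nod*.

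A further 4 gene sums were at or near 0 in *UAS-traF/+* brains. *Sdic3* and *Sdic4*, on chromosome X, are copies of the tandemly repeated sperm-specific dynein intermediate chain gene. *Sdic3* had 157 and 176 normalised counts in *SPG-GAL4/+* brains, against 0 and 0 in *UAS-traF/+* brains, and was thus at least 55.0-fold higher in *SPG-GAL4/+* (adjusted p = 0.0447, edgeR). *Sdic4* had 81.7 and 200 in *SPG-GAL4/+* brains, against 0 and 2.93 in *UAS-traF/+* brains (adjusted p = 0.0637, edgeR). The copies are nearly identical, so reads can be shared out between them and single-copy values are uncertain. A list of 14 testis markers summed to 90.8 and 271 normalised counts in *SPG-GAL4/+* brains, against 90.1 and 65.5 in *UAS-traF/+* brains, and its part in the *Sdic* values was not tested. *CG14111*, which overlaps *SNCF* on the same strand and *CG14107* on the other, had 203 and 292 in *SPG-GAL4/+* brains, against 1.03 and 4.89 in *UAS-traF/+* brains (adjusted p = 0.0426, edgeR). The *SPG-GAL4/UAS-traF* libraries expressed all 3 genes, with 148 and 347 for *Sdic3*, 78.7 and 51.8 for *Sdic4*, and 287 and 111 for *CG14111*.

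The last of the 4 was 1 of a pair of Baramicin A genes, antifungal peptide precursor genes of the immune response. *BaraA1* had 109 and 83.7 normalised counts in *SPG-GAL4/+* brains, against 0 and 0 in *UAS-traF/+* brains, at least 31.9-fold higher in *SPG-GAL4/+* (adjusted p = 0.0325, edgeR). *BaraA2*, 3381 bp away on chromosome 2R, ran the other way, with 23.8 and 17.9 in *SPG-GAL4/+* brains, against 154 and 229 in *UAS-traF/+* brains. Its log2 ratio was -3.20 (SE 0.28, adjusted p = 0.0135, edgeR). In *SPG-GAL4/UAS-traF* males *BaraA1* had 0 and 0 and *BaraA2* had 111 and 134. The copies are nearly identical, so the split of reads between them is uncertain. The opposite directions were read from 2 genes that the quantification can trade against each other.

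Among the 13 genes that were lower in *SPG-GAL4/+* males was a clock pair. *vri* (FBgn0016076, chromosome 2L), the repressor that feeds back on *Clk*, had 533 and 465 normalised counts in *SPG-GAL4/+* brains, against 1273 and 1315 in *UAS-traF/+* brains, a log2 ratio of -1.38 (SE 0.09, adjusted p = 0.00519, edgeR). *tim*, whose protein partners PER and is broken down in light, had 2157 and 1990 in *SPG-GAL4/+* brains, against 3433 and 2994 in *UAS-traF/+* brains, a log2 ratio of -0.63 (SE 0.09, adjusted p = 0.0947, edgeR). The *SPG-GAL4/UAS-traF* libraries lay with *SPG-GAL4/+* in both genes, at 512 and 501 for *vri* and at 2050 and 2028 for *tim*. Without *UAS-traF/+* replicate 1, *tim* kept its direction with an adjusted p of 0.771 in edgeR.

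The other clock genes did not pass the test. Of 14 tested members of a clock list, 2 were called, both lower, and the median log2 ratio was -0.06. *per*, the partner of *tim*, had a log2 ratio of 0.16 (SE 0.11). *Clk*, the activator that *vri* represses, had 0.02 (SE 0.12), and its partner *cyc* had -0.08 (SE 0.08). The *to* gene had the lowest value of the list, -2.24, with 14.8 and 8.46 normalised counts in *SPG-GAL4/+* brains, against 103 and 5.87 in *UAS-traF/+* brains, so that it rested on *UAS-traF/+* replicate 1. All genotypes were dissected in the same window of hours, as the methods state.

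**Figure D2:**
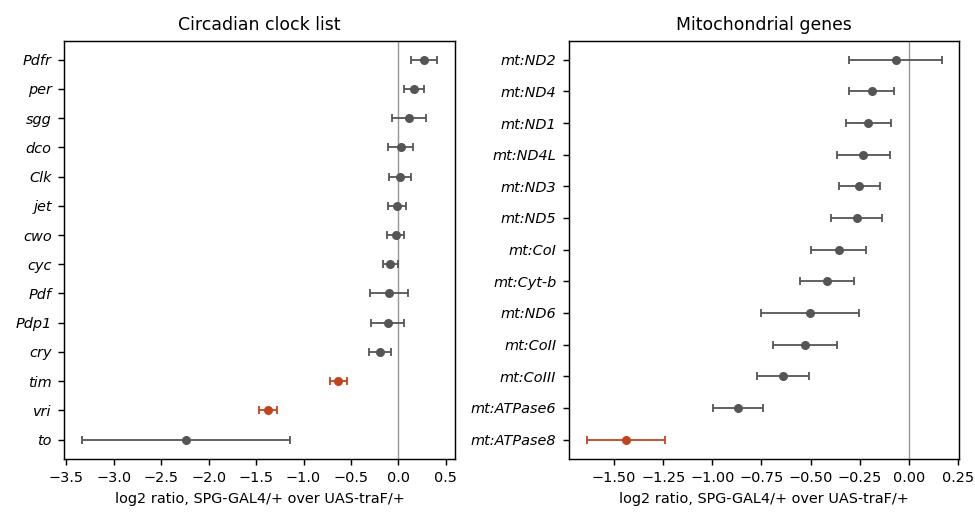
Log2 ratio of the gene sum, *SPG-GAL4/+* over *UAS-traF/+* (x axis, bars are 1 standard error), for 14 genes of the clock list and 13 mitochondrial genes. Red points passed the adjusted p of 0.1, and *vri* at -1.38 and *tim* at -0.63 lie apart from the other core clock genes, while all 13 mitochondrial values are below 0.

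On chromosome 3R, *CG6834* and *CG6908* lie 248 bp apart and were both lower. *CG6908* had 273 and 257 normalised counts in *SPG-GAL4/+* brains, against 688 and 642 in *UAS-traF/+* brains, a log2 ratio of -1.33 (SE 0.09, adjusted p = 0.00546, edgeR). *CG6834* had 855 and 970 in *SPG-GAL4/+* brains, against 1860 and 1815 in *UAS-traF/+* brains, a log2 ratio of -1.01. In both genes the *SPG-GAL4/UAS-traF* males lay between the controls, at 432 and 433 for *CG6908* and at 1406 and 1498 for *CG6834*. A second pair of called genes lies 12429 bp apart on chromosome 2L. Of this pair *CG16965* had 106 and 131 in *SPG-GAL4/+* brains, against 373 and 389 in *UAS-traF/+* brains, and *Ada1-1*, a gene for a subunit of the SAGA histone acetyltransferase complex, had 176 and 154 in *SPG-GAL4/+* brains, against 347 and 355 in *UAS-traF/+* brains.

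*CG6928*, a member of the SLC26 family of anion transporters on chromosome 3L, had 453 and 515 normalised counts in *SPG-GAL4/+* brains, against 1214 and 1174 in *UAS-traF/+* brains. Here the *SPG-GAL4/UAS-traF* libraries, at 1218 and 1104, lay with *UAS-traF/+*. The same held for *rec*, a meiotic recombination gene, at 280 and 264 in *SPG-GAL4/+* brains, against 540 and 500 in *UAS-traF/+* brains, with 485 and 483 in *SPG-GAL4/UAS-traF* males. The mucin-like gene *Mur89F* had 18.2 and 18.8 in *SPG-GAL4/+* brains, against 71.4 and 62.6 in *UAS-traF/+* brains. The library kit does not keep strand, so reads cannot be told apart where exons of both strands overlap. The spans of 10 of the 21 called genes, introns included, overlap a gene on the other strand. These are *w*, *Gr32a*, *nod*, *CG14111*, *BaraA1*, *BaraA2*, *CG16965*, *Ada1-1*, *rec* and *Mur89F*. Whether their exons overlap, and the share of all genes with such a span, were not examined. *CG6071* had 29.5 and 29.1 in *SPG-GAL4/+* brains, against 85.9 and 75.3 in *UAS-traF/+* brains. *pre-mod(mdg4)-B*, which supplies a 3' exon that is trans-spliced to *mod(mdg4)* RNA and overlaps that gene, had 188 and 224 in *SPG-GAL4/+* brains, against 401 and 410 in *UAS-traF/+* brains.

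**Figure D3:**
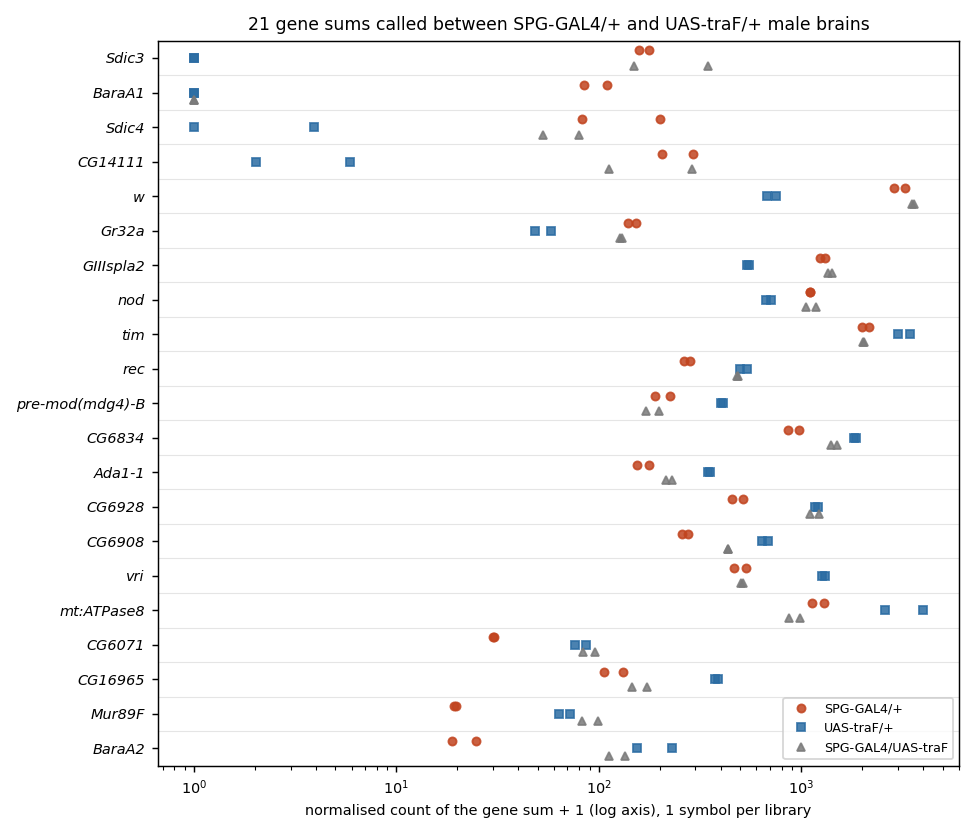
Normalised counts plus 1 on a log axis (x) of the 21 called gene sums (y, ordered by log2 ratio), with 1 symbol per library and a symbol and colour per genotype. No gene has overlapping controls, and the *SPG-GAL4/UAS-traF* libraries are nearer to *SPG-GAL4/+* for 13 genes and nearer to *UAS-traF/+* for 8 on this log scale.

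The *SPG-GAL4/UAS-traF* libraries, which took no part in choosing the direction, were both nearer to *SPG-GAL4/+* in 13 of the 21 genes and both nearer to *UAS-traF/+* in 8 by distance on the log2 scale. On the linear scale, tried after the data were seen, these numbers were 12 and 7, with *CG6908* nearer to *SPG-GAL4/+* and with *Sdic4* and *CG14111* having 1 library on each side. Of the 8 genes that were higher in *SPG-GAL4/+*, 7 had these libraries on the *SPG-GAL4/+* side on the log2 scale, the exception being *BaraA1*. Of the 13 lower genes, 6 were on the *SPG-GAL4/+* side and 7 on the *UAS-traF/+* side. Both libraries lay between the controls in 8 genes. These libraries entered the estimate of the spread, and they share the driver with *SPG-GAL4/+* and the transgene with *UAS-traF/+*, so the positions are a description.

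By chromosome, the called gene sums were 5 of 1735 tested on 2L, 2 of 2002 on 2R, 3 of 1861 on 3L, 5 of 2438 on 3R, 0 of 78 on chromosome 4, 5 of 1648 on X and 1 of 13 in the mitochondrial genome. The 5 on X were all higher in *SPG-GAL4/+* and the 5 on 3R all lower. Among the 5 on X, *w* was placed by its endogenous gene, and a copy on a transgene can lie elsewhere. No difference between chromosomes was tested. The share with an unadjusted p below 0.05 ranged from 6.41% on chromosome 4 to 9.59% on X among the nuclear chromosomes.

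In the mitochondrial genome, which flies inherit from the mother, all 13 tested genes had lower fitted values in *SPG-GAL4/+* males, with a median log2 ratio of -0.36 and a range from -1.44 to -0.07. The group was read together after its values were seen. Only *mt:ATPase8*, a subunit of ATP synthase, was called, at 1127 and 1294 normalised counts in *SPG-GAL4/+* brains, against 3995 and 2588 in *UAS-traF/+* brains (log2 ratio -1.44, SE 0.20, adjusted p = 0.0947, edgeR). Its call was lost with the length trend removed (log2 ratio -1.14, adjusted p = 0.134 in edgeR). *mt:ATPase6*, which overlaps it, had 66311 and 74890 in *SPG-GAL4/+* brains, against 129850 and 128030 in *UAS-traF/+* brains, just short of the threshold with an adjusted p of 0.101 in edgeR. Of the 13 genes, 7 were lower at an unadjusted p below 0.05, against 4.80% of all gene sums. In 10 both *SPG-GAL4/+* libraries were below both *UAS-traF/+* libraries, while the controls did not overlap, in either direction, in 35.1% of all gene sums. The 13 genes lie in the same genome, so they are not separate observations. The mitochondrial share of all counts was 4.20% and 4.86% in *SPG-GAL4/+* males, 5.96% and 6.34% in *UAS-traF/+* males, and 5.35% and 5.33% in *SPG-GAL4/UAS-traF* males.

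At the level of single transcripts, 8 of 21208 passed in edgeR with Benjamini-Hochberg adjustment (0.0377%), 6 higher (0.0283%) and 2 lower (0.00943%) in *SPG-GAL4/+* males. An unadjusted p below 0.05 was found for 1567 (7.39%), split into 4.01% higher and 3.38% lower. The 8 transcripts belong to 7 genes, and of these genes only *w* was also called as a gene sum. Without *SPG-GAL4/+* replicate 1 or without *UAS-traF/+* replicate 1 edgeR called 0 transcripts (2012 and 1022 at an unadjusted p below 0.05). Without *UAS-traF/+* replicate 2 it called 16, and without *SPG-GAL4/+* replicate 2 it called 511. The DESeq2 count was 552, which holds all 8.

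The isoform with the smallest p was *raptor-RC* (FBtr0345895) of *raptor*, the scaffold subunit of TOR complex 1, on chromosome X. It had 41.4 and 39.3 normalised counts in *SPG-GAL4/+* brains, against 1443 and 1379 in *UAS-traF/+* brains, a log2 ratio of -5.12 (SE 0.16, adjusted p = 0.0101, edgeR). The only other isoform, *raptor-RB*, ran the other way, with 3435 and 2991 in *SPG-GAL4/+* brains, against 1501 and 1563 in *UAS-traF/+* brains. The gene sum had a log2 ratio of 0.18 (SE 0.10, adjusted p = 0.656, edgeR). *raptor-RC* thus took 1.19% and 1.30% of the gene in *SPG-GAL4/+* brains, against 49.0% and 46.9% in *UAS-traF/+* males. The *SPG-GAL4/UAS-traF* libraries, at 1.39% and 1.66%, were on the *SPG-GAL4/+* side. In the annotation *raptor-RC* differs from *raptor-RB* by 25 bases of its own outside the coding sequence, which both share, so the isoforms are told apart by reads over a short stretch.

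Other TOR genes did not differ beyond the threshold. Of 21 tested members of a TOR signaling list, 0 were called by edgeR or DESeq2. Beside 7.71% of all gene sums, 3 of the 21 had an unadjusted p below 0.05 in edgeR. These were *rictor* with a log2 ratio of 0.35, *mTor* with 0.27 and *Thor*, the translation repressor 4E-BP, with -0.53.

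*AGO2-RC*, an isoform of the Argonaute of the siRNA pathway, had 565 and 427 normalised counts in *SPG-GAL4/+* brains, against 2595 and 2901 in *UAS-traF/+* brains (log2 ratio -2.47, SE 0.17, adjusted p = 0.0900, edgeR). In contrast to *raptor-RC*, the *SPG-GAL4/UAS-traF* libraries lay with *UAS-traF/+*, at 2952 and 3350. *AGO2-RB*, the most abundant isoform of the gene, had 10873 and 10185 in *SPG-GAL4/+* brains, against 10912 and 10592 in *UAS-traF/+* brains, so it stayed in the same range in all 4 libraries. The third isoform, *AGO2-RE*, varied between replicates, with 130 and 824 in *SPG-GAL4/+* brains, against 1297 and 740 in *UAS-traF/+* brains. The usage of *AGO2* was not called (adjusted p = 0.878, edgeR).

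Apart from *w-RA* (adjusted p = 0.0645, edgeR), the remaining called isoforms were counted in *SPG-GAL4/+* males and at 0 in both *UAS-traF/+* libraries. None of them had an exonic base or an intron of its own. The least folds given for isoforms set the other genotype at 3 estimated counts per library. They leave out the error of sharing out reads between isoforms, so they hold for the estimated counts only. *trx-RE*, of the histone methyltransferase gene *trithorax*, had 1020 and 900 normalised counts in *SPG-GAL4/+* males and was at least 315-fold higher there (adjusted p = 0.0509, edgeR). Another isoform of the gene, *trx-RC*, had 1.09 and 235 in *SPG-GAL4/+* brains, against 1159 and 981 in *UAS-traF/+* brains. In *SPG-GAL4/UAS-traF* males *trx-RE* had 1280 and 1031 and *trx-RC* 0 and 3.90. The 2 isoforms have the same coding sequence as another isoform of the gene and no exonic base of their own.

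*CG8405-RA* had 695 and 533 normalised counts in *SPG-GAL4/+* males, at least 201-fold above the 0 and 0 of *UAS-traF/+* males (adjusted p = 0.0583, edgeR), and 341 and 345 in *SPG-GAL4/UAS-traF* males. For *CadN*, the N-cadherin of axons and synapses, the isoforms *CadN-RF* and *CadN-RB* were called. *CadN-RF* had 172 and 176 in *SPG-GAL4/+* males (at least 57.2-fold higher, adjusted p = 0.0657, edgeR) and *CadN-RB* had 362 and 527 (at least 146-fold higher, adjusted p = 0.0973, edgeR). Together they made up a small share of the gene, and *CadN-RE* and *CadN-RD* held most of it in all libraries. *Wdr62-RE*, of the centrosomal gene *Wdr62*, had 226 and 190 in *SPG-GAL4/+* males (at least 68.1-fold higher, adjusted p = 0.0973, edgeR) and 94.0 and 82.9 in *SPG-GAL4/UAS-traF* males.

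**Figure D4:**
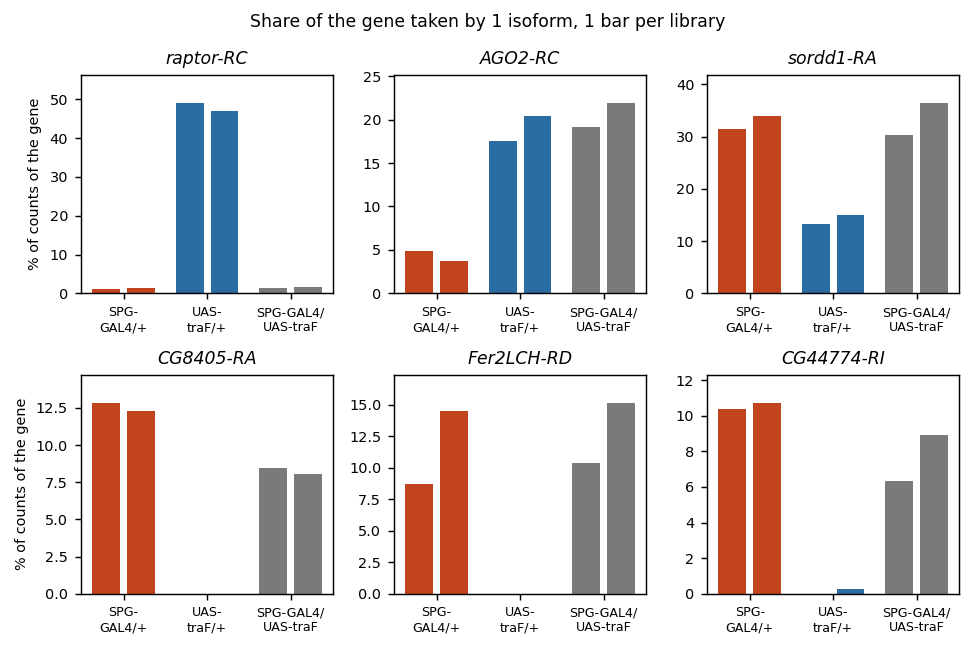
Share of the gene's estimated counts taken by 1 isoform in percent (y axis), with 1 bar per library and a panel per isoform. The panels were chosen after their values were seen. *raptor-RC* takes 49.0% and 46.9% of *raptor* in *UAS-traF/+* males and under 2% elsewhere, while *AGO2-RC* takes 4.88% and 3.74% of *AGO2* in *SPG-GAL4/+* brains, against 17.5% and 20.4% in *UAS-traF/+* brains, in a gene not called for usage.

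An isoform was then called present in a genotype at 30 or more estimated counts in both libraries, and absent at 3 or fewer in both. Of 16937 isoforms present in *SPG-GAL4/+* males, 82 (0.484%) were absent in *UAS-traF/+* males, and of 16984 present in *UAS-traF/+* males, 31 (0.183%) were absent in *SPG-GAL4/+* males. They came from 78 and 31 genes. With 1 library set against 1, the limits were met more often, within a genotype as between genotypes. Within *SPG-GAL4/+* males 297 isoforms had 30 or more counts in replicate 1 and 3 or fewer in replicate 2, and 465 the reverse. In *UAS-traF/+* males these numbers were 340 and 308. Over the 4 pairs of 1 library of each genotype, 346 to 481 isoforms were at 30 or more in the *SPG-GAL4/+* library alone and 260 to 382 in the *UAS-traF/+* library alone, so these ranges overlap those within a genotype. The isoforms were chosen by these values, so no test is read from them.

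The values near the limits were close together. Of isoforms absent in the other genotype, 5 had a lower count of 30 to 34 in *SPG-GAL4/+* males while 10 had 25 to 29, and in *UAS-traF/+* males the numbers were 6 and 7. *Wnt4-RB* was just inside with estimated counts of 64 and 31 in *SPG-GAL4/+* males, and *Pep-RD* just outside with 29 and 30. *CG4020-RB* was just inside with 31 and 30 in *UAS-traF/+* brains, and *SMC5-RG* just outside with 29 and 56.

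Of the isoforms present in *SPG-GAL4/+* males only, *Fer2LCH-RD* of the ferritin light chain, an iron storage subunit, had the highest level. It had 1766 and 3359 normalised counts in *SPG-GAL4/+* brains, against 0 and 0 in *UAS-traF/+* brains, at least 841-fold higher, though its adjusted p of 0.194 in edgeR missed the threshold. It had no exonic base or intron of its own, so this fold holds for the estimated counts only. It took 8.73% and 14.5% of the gene in *SPG-GAL4/+* brains, and *Fer2LCH-RE* had a lower share there, 88.7% and 83.4%, than in *UAS-traF/+* males, 98.5% and 98.4%. *Pal2-RD*, of a peptide amidating lyase gene, followed with 939 and 1590, and *Rbcn-3B-RA*, of a rabconnectin gene, had 835 and 373. *stx-RA* had 480 and 479, *CG8671-RA* 472 and 355, *CG44247-RA* 671 and 114, and *slmb-RC*, of an F-box protein of the ubiquitin pathway, 511 and 173.

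Isoforms of neuronal genes were among these. *Syt1-RA*, of the calcium sensor of synaptic vesicle release, had 337 and 572 normalised counts in *SPG-GAL4/+* brains, against 1.04 and 0 in *UAS-traF/+* brains, which is under 1% of *Syt1* in each control library. *Slob-RI*, of a gene whose protein binds the Slowpoke potassium channel, had 311 and 482 in *SPG-GAL4/+* brains, against 0 and 0 in *UAS-traF/+* brains, at least 130-fold higher. Of the list of synaptic vesicle release genes, 27 gene sums were tested and 0 were called by edgeR or DESeq2. In edgeR 0 had an unadjusted p below 0.05, against 7.71% of all gene sums.

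The isoforms present in *UAS-traF/+* males only were at lower levels. *CG42540-RB* led, with 0 and 0 normalised counts in *SPG-GAL4/+* brains, against 199 and 161 in *UAS-traF/+* brains, at least 58.5-fold higher in *UAS-traF/+*. *Proc-R-RB*, of the proctolin receptor, had 176 and 144 in *UAS-traF/+* brains, *CG8321-RB* 148 and 99.2, and *Acsl-RD*, of a long-chain acyl-CoA synthetase, 84.2 and 108. *ttk-RH*, of the repressor Tramtrack, had 76.9 and 120 in *UAS-traF/+* brains and took 11.3% of its gene there. *foxo-RC*, of the transcription factor downstream of insulin signaling, had 0 and 0.958 in *SPG-GAL4/+* brains, against 59.3 and 129 in *UAS-traF/+* brains. *Flo2-RA*, *slgA-RD*, *CG33111-RB*, *RpS15Aa-RA*, *cpx-RV* and *teq-RG* completed the 12 with the highest levels, and each had 0 in both *SPG-GAL4/+* libraries.

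**Figure D5:**
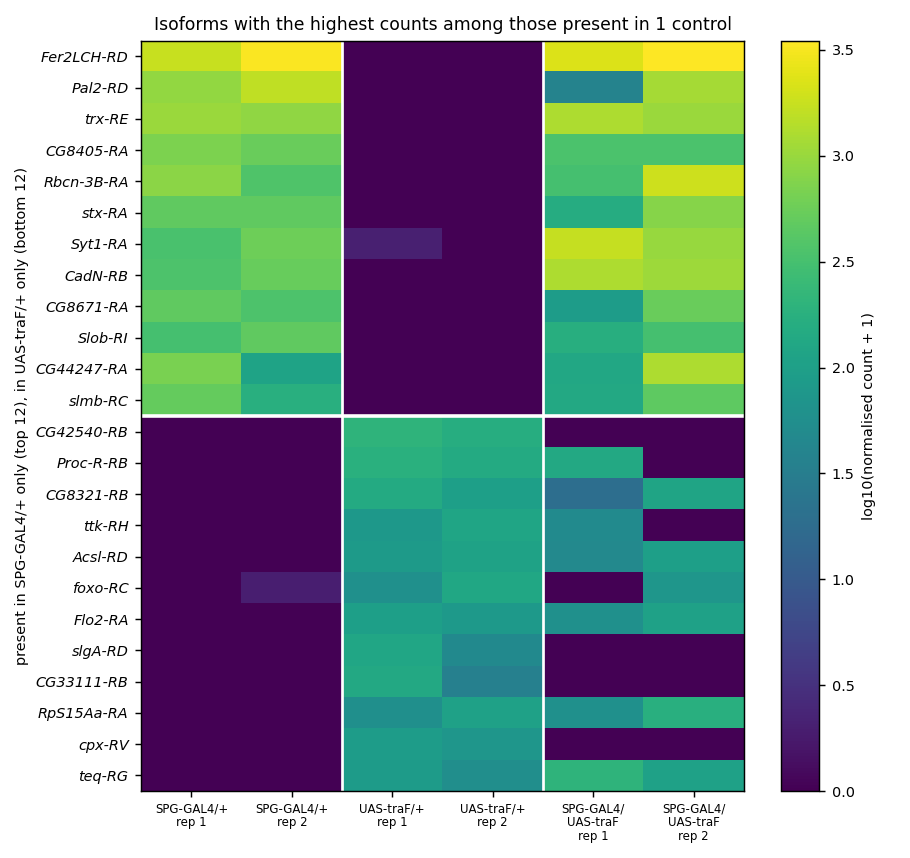
Log10 of normalised counts plus 1 (colour) in the 6 libraries (columns) for the 12 isoforms with the highest level among those present in *SPG-GAL4/+* only (upper rows) and in *UAS-traF/+* only (lower rows). All 12 upper isoforms have counts in both *SPG-GAL4/UAS-traF* libraries, while 4 of the lower 12 have none there.

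The *SPG-GAL4/UAS-traF* libraries, which the choice did not use, had 30 or more counts in both libraries for 41 of the 82 isoforms and 3 or fewer in both for 14. In 17 one library was at 30 or more and the other at 3 or fewer. For the 31 isoforms of *UAS-traF/+* males these numbers were 5, 9 and 10. The remaining isoforms, 10 and 7, fell between.

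Most of these isoforms were minor forms of their gene. Their median share of the gene was 3.38% in *SPG-GAL4/+* brains, against 3.59% in *UAS-traF/+* males, and 7 and 2 of them took over 50% of their gene. The gene sum had a log2 ratio under 0.5 in size in 73 of 78 genes of the *SPG-GAL4/+* isoforms and in 31 of 31 of the *UAS-traF/+* isoforms. Of the gene sums themselves, 3 of 8646 present in *SPG-GAL4/+* males were absent in *UAS-traF/+* males (0.0347%), namely *Sdic3*, *BaraA1* and *Sdic4*. Of 8704 present in *UAS-traF/+* males 0 were absent in *SPG-GAL4/+* males, which became 42 when *UAS-traF/+* replicate 2 was left out and replicate 1 alone stood for the genotype.

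Many of these isoforms had no sequence of their own in the annotation. Of those in genes with several isoforms, 82.5% of the *SPG-GAL4/+* set and 64.5% of the *UAS-traF/+* set had no exonic base of their own, against 49.2% of all present isoforms in such genes. Neither a base nor an intron of their own was held by 65.0% of the *SPG-GAL4/+* set, 35.5% of the *UAS-traF/+* set and 28.2% of all present isoforms. The coding sequence was shared with another isoform in 62.5%, 71.0% and 57.1%. For 6 isoforms of the *SPG-GAL4/+* set the exons were identical to those of another isoform, so that their counts are shared out by the quantification alone.

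Transcript usage, the way a gene's counts are split among its isoforms, differed in 114 of 5109 genes (2.23%) in edgeR's diffSpliceDGE test at a Benjamini-Hochberg adjusted p of 0.1. Without *UAS-traF/+* replicate 1 the count was 55. Of the 114 genes, 110 had a gene-sum log2 ratio under 0.5 in size, and 1 was called as a gene sum. A present or absent isoform was found in 54, which is 47.4% of the genes called for usage and 50.9% of the 106 genes that hold such isoforms. Those isoforms were chosen from the same counts that the usage test used, so an overlap is built in and is no separate evidence. *Fer2LCH* had the smallest adjusted p (2.08e-09 in edgeR), followed by *raptor* (1.34e-05), *Syt1* (1.83e-05), *Alh*, *sky*, *Slob*, *CG8405*, *CG44774*, *CadN* and *sordd1*.

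In *sordd1* the shift did not rest on an absent isoform. *sordd1-RA*, which has 83 bases of its own, took 31.4% and 33.9% of the gene in *SPG-GAL4/+* brains, against 13.3% and 15% in *UAS-traF/+* males, with 30.3% and 36.4% in *SPG-GAL4/UAS-traF* males. *CG44774-RI* took 10.4% and 10.7% of its gene in *SPG-GAL4/+* brains, against 0% and 0.27% in *UAS-traF/+* males. In *sky*, the gene of a GTPase activator at synaptic vesicles, *sky-RE* took 1.26% and 1.09% in *SPG-GAL4/+* brains, against 7.02% and 4.17% in *UAS-traF/+* males. *Alh-RD*, of a zinc finger gene, took 4.55% and 2.25% in *SPG-GAL4/+* brains, against 0.0447% and 0% in *UAS-traF/+* males.

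Of the genes tied to the transgenes or to sex determination, *fru* and *moody* were also called for usage, with adjusted p of 0.00156 and 0.0211 in edgeR. *fru-RM* had 69.8 and 44.1 normalised counts in *SPG-GAL4/+* brains, against 270 and 169 in *UAS-traF/+* brains, with 1.92 and 0 in *SPG-GAL4/UAS-traF* males. *fru-RI* ran the other way, with 277 and 171 in *SPG-GAL4/+* brains, against 4.16 and 0 in *UAS-traF/+* brains, and in *SPG-GAL4/UAS-traF* males its 2 libraries were far apart at 6.71 and 155. These are 2 of the 12 isoforms of *fru*, and neither was called as a transcript (adjusted p = 0.652 and 0.568, edgeR). The usage of *dsx* and *Sxl* was not called, with adjusted p of 1.0 and 0.828 in edgeR.

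Of the remaining gene lists, 0 members were called by edgeR in any, while DESeq2 called *Cyp6a17*, *Cyp6a22*, *Cyp28d1*, *Cyp6w1*, *GstD9* and *Hsp83*. In the list of cytochrome P450 and glutathione S-transferase genes, 6 of 88 tested gene sums were higher and 17 lower in *SPG-GAL4/+* males at an unadjusted p below 0.05, against 2.92% and 4.80% of all gene sums, and the list's median log2 ratio was -0.16. *Cyp6a17*, a P450 gene tied to temperature preference, had 2112 and 2863 normalised counts in *SPG-GAL4/+* brains, against 703 and 1222 in *UAS-traF/+* brains. Its neighbour in name, *Cyp6a22*, had 69.2 and 115 in *SPG-GAL4/+* brains, against 20.7 and 37.2 in *UAS-traF/+* brains. In both genes the controls did not overlap, as in 35.1% of all gene sums tested, with adjusted p of 0.192 and 0.278 in edgeR. *GstD9* had 3353 and 4322 in *SPG-GAL4/+* brains, against 5869 and 6001 in *UAS-traF/+* brains, a log2 ratio of -0.63 (SE 0.13, adjusted p = 0.260, edgeR).

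Counts at an unadjusted p below 0.05 were 0 higher and 4 lower of 33 immune genes, 2 higher and 1 lower of 24 stress genes, 0 higher and 2 lower of 28 septate junction genes, and 0 higher and 1 lower of 17 odorant-binding protein genes. Over all gene sums, 2.92% were higher and 4.80% lower at that p. *Hsp83*, the Hsp90 chaperone, had 29561 and 32218 normalised counts in *SPG-GAL4/+* brains, against 22439 and 24683 in *UAS-traF/+* brains, with an adjusted p of 0.551 in edgeR. The summed markers of subperineurial glia, the cells the driver is active in, were 13483 and 14908 in *SPG-GAL4/+* brains, against 14054 and 14600 in *UAS-traF/+* brains, and 0 of 8 were called or had an unadjusted p below 0.05. Glial markers summed to 293166 and 279685 in *SPG-GAL4/+* brains, against 353854 and 316231 in *UAS-traF/+* brains, and neuron markers to 423752 and 298580 in *SPG-GAL4/+* brains, against 339883 and 305759 in *UAS-traF/+* brains. The glial sums did not overlap between the controls, which was also so for 35.1% of all gene sums tested. The neuron sums overlapped. Of 7 tested glial markers 0 were called by edgeR or DESeq2. In edgeR 1 had an unadjusted p below 0.05, against 7.71% of all gene sums. All glial log2 ratios were below 0, from -0.36 to -0.10, and those of the 8 neuron markers above 0, from 0.06 to 0.35. The median over all gene sums was 0.00. Of the neuron markers 0 were called or had an unadjusted p below 0.05 in edgeR.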

How the data were processed

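Poly-A RNA of brains was sequenced in 6 libraries as 75-cycle paired reads from a kit that does not keep strand. The authors quantified transcripts with Kallisto and deposited an estimated count for every transcript, whole and not normalized. The Kallisto version and the reference build are not given in the sources used here. All 6 columns were used. Symbols, exons and coordinates came from Ensembl release 115 of BDGP6.54, which holds 28061 of the 28071 transcripts, in 13453 genes. Totals ranged from 32839081 to 37608924, and since Kallisto shares out reads between isoforms, a transcript's precision is lower than its count implies. Kallisto's own error was not used here.

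Transcripts, gene sums and transcript usage were tested with glmQLFTest and diffSpliceDGE of edgeR 4.0.16 (R 4.3.3) in 1 fit of 3 genotypes over the 6 libraries, which leaves 3 residual degrees of freedom. TMM normalization, the default filter on low counts, a prior count of 0.125 and Benjamini-Hochberg adjustment were used, with a threshold of 0.1. A fold against a genotype with 0 counts was taken against 3 counts per library, and it leaves out the error of sharing out reads between isoforms or gene copies. Standard errors are log2 ratios divided by the square root of F. The steps were tested on simulated data with a seed of 11. Intervals of counting error were not used.

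Alternatives were DESeq2 1.42.0, limma-voom of limma 3.58.1, median-of-ratios size factors, other filters, the 4 controls only, the replicate number as a block, a length trend removed, thinning, a threshold of 0.05 and leaving out each library. The labels call the libraries biological replicates, and neither they nor the methods say that a number marks a shared batch or sitting. The members, gene lists and tests were chosen with earlier results of these data known. Named were *w*, *moody*, *tra*, *dsx*, *fru* and *Sxl*, every called transcript, up to 15 called gene sums a direction, the 12 highest present-or-absent isoforms a direction, the 10 genes first for usage, and list members called or with the largest fold. Other named genes, among them *trx-RC*, *raptor-RB*, *AGO2-RB*, *per*, *Clk*, *cyc*, *mTor*, *GstD9*, *Hsp83*, *mt:ATPase6* and the digestive enzyme and leucylaminopeptidase lists, were chosen after their values were seen.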

Additional observations from a re-analysis of the deposited data

How the results depend on the processing

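All 21 called gene sums and 8 called transcripts kept their direction under every alternative that gave a value, and 6 gene sums and 0 transcripts were called under all of them. Called gene sums numbered 95 in DESeq2, 34 without a filter, 11 in the 4 control libraries alone, 74 with the length trend removed, and 6 to 3856 with 1 library left out. Called transcripts numbered 552 in DESeq2, 3 with at least 10 counts in each control library, 1 in the 4 control libraries alone, 3 in limma-voom, 5 with the length trend removed, 1 at an adjusted p below 0.05, and 0 to 511 with 1 library left out. Usage was called in 70 genes at an adjusted p below 0.05, in 39 with at least 10 counts in each control library, and in 55 to 149 with 1 library left out. With the replicate number as a block, edgeR called 0 transcripts (1627 at an unadjusted p below 0.05), 87 gene sums, which hold all 21, and 98 genes for usage. Deviations of same-numbered controls had a correlation of 0.04 over transcripts and 0.24 over gene sums, and although the methods state that all genotypes were dissected in each sitting, neither they nor the labels tie a replicate number to a sitting, so the samples were treated as sharing only a number.

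Isoforms present in *SPG-GAL4/+* only numbered 165 at a minimum of 10 counts, 33 at 100, and 165 to 236 with 1 library left out. Those in *UAS-traF/+* only numbered 112, 3, and 102 to 170. Gene sums in *SPG-GAL4/+* only numbered 7, 1, and 3 to 17, and those in *UAS-traF/+* only 0 to 42 with 1 library left out. Leaving out a library asks for 1 library fewer, so these counts can only rise. Gene sums that were not called changed sign for *moody* (-0.022), *fru* (-0.094) and *Sxl* (-0.087) with the length trend removed. They also did so for *fru* (-0.14) and *Sxl* (-0.26) without *SPG-GAL4/+* replicate 1, and for *Sxl* (-0.0088) without *UAS-traF/+* replicate 2. Without *SPG-GAL4/+* replicate 2 the log2 ratios were 0.27 for *fru*, 0.35 for *Sxl* and 0.30 for *tra*. For the other changes the cause was not tested.

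With 2 libraries a genotype the spread rests on few samples. An isoform absent at 3 counts or fewer was not detectable at this depth, which does not show that it is missing. Isoforms without a base of their own cannot be counted apart by reads alone.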

Other observations

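Digestive enzyme genes, a list chosen after its values were seen, had a summed level of 4572 and 5436 normalised counts in *SPG-GAL4/+* brains, against 20696 and 5905 in replicates 1 and 2 of *UAS-traF/+* males. The trypsin *alphaTry* had 4.54 and 3.76 in *SPG-GAL4/+* brains, against 1499 and 0.978 in *UAS-traF/+* brains, and the maltase *Mal-A1* had 1.13 and 10.3 in *SPG-GAL4/+* brains, against 1532 and 0.978 in *UAS-traF/+* brains. Of the 39 genes 6 were tested, with 0 called by edgeR and 3 by DESeq2. At an unadjusted p below 0.05 in edgeR, 5 were lower in *SPG-GAL4/+* males, against 4.80% of all gene sums. The sperm leucylaminopeptidases summed to 99.8 and 507 in *SPG-GAL4/+* brains, against 86.9 and 117 in *UAS-traF/+* brains. Each of these groups rests on 1 library, and 0 of the tissue markers named next passed edgeR's threshold.

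Accessory gland markers stayed between 10.3 and 20.4 summed normalised counts in the controls, and 0 of 7 in the table were tested. Fat body markers summed to 97387 and 80878 in *SPG-GAL4/+* brains, against 92321 and 83098 in *UAS-traF/+* brains, retina markers to 38192 and 36860 in *SPG-GAL4/+* brains, against 40264 and 36851 in *UAS-traF/+* brains, and muscle markers to 3769 and 3500 in *SPG-GAL4/+* brains, against 4077 and 3733 in *UAS-traF/+* brains. Hemocyte markers summed to 15211 and 17444 in *SPG-GAL4/+* brains, against 13407 and 13685 in *UAS-traF/+* brains, perineurial glia markers to 44924 and 53186 in *SPG-GAL4/+* brains, against 50871 and 48826 in *UAS-traF/+* brains, and tracheal markers to 810 and 891 in *SPG-GAL4/+* brains, against 831 and 825 in *UAS-traF/+* brains. Of the 6 lists from fat body to trachea only the hemocyte sums did not overlap between the control genotypes, as was so for 35.1% of all gene sums tested. In the hemocyte list 1 of 8 tested genes had an unadjusted p below 0.05, against 7.71% of all gene sums.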
